A study of Danio rerio with 30 samples.

Results

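Immediate early response genes are transcribed soon after a cell is stimulated, without the need for new protein synthesis. They are switched on by the mitogen-activated protein (MAP) kinase, calcium and stress signalling pathways. Many of their products are transcription factors or feedback inhibitors, and in the nervous system several of them serve as markers of recent neuronal activity. Values are reported here for 6 such zebrafish genes. klf2a, npas4a and junba encode transcription factors, dusp1 encodes a phosphatase that switches off MAP kinases, btg2 encodes an antiproliferative protein, and gadd45ba encodes a stress-induced protein of the growth arrest and DNA damage family. The genes were chosen by their differences in these same arrays, and they match 8 of the 15502 probe sets that were not controls. klf2a, dusp1, btg2 and gadd45ba were chosen as low with copper averaged over the chlorpyrifos levels, and npas4a and junba with their chlorpyrifos direction known. The differences that chose them are given below as a description, and a count of calls printed beside such a difference is no test of these genes.

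The study exposed 30 adult zebrafish of the AB strain, 1 year old, and measured 10 groups with 3 Affymetrix arrays each. The groups were unexposed controls (CPF 0 with Cu 0), chlorpyrifos (CPF) alone at 0.1, 0.25 and 0.6, copper (Cu) alone at 0.1, 0.25 and 0.6, and CPF at 0.1, 0.25 and 0.6 each together with Cu at 0.25. Chlorpyrifos is an organophosphate insecticide whose oxon form inhibits acetylcholinesterase, and copper is a metal toxic to olfactory sensory neurons of fish. No source used here gives the unit of concentration or the length of exposure. Olfactory rosettes are the tissue in one label, and another label of the same samples adds olfactory bulbs and telencephalons. Forebrain genes were measured on every array, with all 9 bulb and telencephalon markers on the array kept. The RNA came from whole tissue, so fewer cells of a type and less RNA per cell cannot be told apart. Whether the 3 samples of a group were independent is not stated, and the p-values therefore cover only the spread among these arrays.

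Expression is given as log2 values, so a difference of 1 is a doubling. Of the 8 probe sets, 7 exceeded 4 in at least 3 of the 30 arrays and were kept among 10531 probe sets. The exception was a second btg2 probe set, which read 2.30 to 2.59 and exceeded 4 in 0 arrays. gadd45ba had 2 kept probe sets, of which the brighter is used unless the second is named. In the platform annotation the Entrez gene identifier was 117508 for klf2a, 724016 for npas4a, 407086 for junba, 406340 for dusp1, 30079 for btg2 and 406304 for gadd45ba. Medians of the arrays over kept probe sets lay between 6.86 and 7.02, and correlations between arrays between 0.962 and 0.993. Titles of the samples carry dates that divide the arrays into 3 title batches of 12, 13 and 5 arrays. Differences below are limma estimates over all 30 arrays with a term for the title batch, ± their standard error (SE), with p-values adjusted by the Benjamini-Hochberg method for 10531 probe sets and called below 0.05.

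klf2a, a Krüppel-like zinc finger transcription factor known for its response to blood flow in endothelium, had its lowest values with copper. klf2a read 9.43, 9.23 and 8.60 in the 3 control arrays. It read 7.61, 8.0 and 8.10 at Cu 0.1, then 7.62, 7.32 and 6.99 at Cu 0.25, and 7.44, 6.74 and 6.90 at Cu 0.6. All 9 arrays of copper alone lay below all 3 controls. How many of all probe sets separate like this was not counted, here or where groups are pooled or mixtures set against controls below. Such statements include arrays behind the choice of the genes and only describe the values. Under CPF alone klf2a read 9.40, 8.52 and 9.40 at 0.1, 7.63, 9.03 and 9.74 at 0.25, and 8.51, 8.72 and 7.77 at 0.6. The CPF groups overlapped the controls, and the 3 arrays of CPF 0.25 were the most scattered of the 10 groups. With both agents klf2a read 7.81, 7.5 and 7.99 at CPF 0.1, 6.95, 8.05 and 7.76 at CPF 0.25, and 8.28, 7.71 and 7.54 at CPF 0.6. These 9 arrays of the mixtures also lay below the 3 controls.

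npas4a, a neuronal transcription factor induced by calcium entry during activity, was highest with CPF alone and lowest with the higher copper levels. npas4a read 10.15, 10.32 and 10.20 in controls, a group with little spread. With CPF alone it read 11.04, 10.75 and 11.10 at 0.1, 11.20, 10.71 and 11.16 at 0.25, and 10.79, 10.94 and 10.50 at 0.6. All 9 arrays of CPF alone exceeded the 3 controls. At Cu 0.1 npas4a read 10.39, 10.20 and 10.50, at Cu 0.25 9.95, 9.35 and 10.29, and at Cu 0.6 9.43, 9.99 and 9.81. Copper at 0.1 and 0.25 overlapped the controls, whereas the 3 arrays of Cu 0.6 lay below them. In the mixtures npas4a read 10.71, 10.58 and 10.59 at CPF 0.1, 10.27, 10.58 and 10.60 at CPF 0.25, and 10.26, 10.59 and 10.92 at CPF 0.6. The mixture with CPF 0.1 lay above all controls and the other two overlapped them.

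junba, a Jun family subunit of the AP-1 transcription factor, was likewise highest with CPF alone. junba read 9.22, 8.80 and 9.09 in controls. In the CPF groups junba read 9.87, 9.42 and 9.72 at 0.1, 10.19, 9.37 and 9.51 at 0.25, and 9.40, 10.20 and 10.28 at 0.6. Again all 9 arrays of CPF alone lay above the 3 controls. With copper alone junba read 9.47, 8.89 and 8.99 at 0.1, 9.10, 8.75 and 9.13 at 0.25, and 8.87, 8.86 and 8.73 at 0.6, and each of these groups overlapped the controls. The mixtures read 9.49, 9.70 and 9.37 at CPF 0.1, 9.37, 9.71 and 9.34 at CPF 0.25, and 9.47, 9.60 and 9.52 at CPF 0.6. All 9 mixture arrays lay above the controls for junba and below them for klf2a. The share of all probe sets with such a separation was not counted.

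dusp1, the nuclear phosphatase that removes phosphate from ERK, JNK and p38 MAP kinases, had its lowest values with copper alone. dusp1 read 9.37, 9.36 and 9.12 in controls. It read 8.28, 9.0 and 8.50 at Cu 0.1, 8.42, 7.82 and 8.37 at Cu 0.25, and 7.75, 8.04 and 8.46 at Cu 0.6, so that all 9 copper arrays were below the controls. With CPF alone dusp1 read 9.65, 9.44 and 9.21 at 0.1, 9.69, 9.69 and 9.65 at 0.25, and 9.41, 10.36 and 9.18 at 0.6. CPF 0.25 lay above all controls and the other CPF groups overlapped them. In the mixtures dusp1 read 8.60, 8.70 and 8.72 at CPF 0.1, 8.48, 9.24 and 8.34 at CPF 0.25, and 8.57, 9.15 and 8.58 at CPF 0.6. CPF 0.1 with copper lay below all controls, and 1 array of each other mixture reached the control range.

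btg2, which in mammals recruits the deadenylase complex that shortens mRNA tails and restrains proliferation, read 9.97, 9.74 and 9.50 in controls. With copper alone btg2 read 8.65, 8.98 and 9.54 at 0.1, 8.96, 8.51 and 8.79 at 0.25, and 8.39, 8.74 and 8.77 at 0.6. Copper at 0.25 and 0.6 lay below all controls, and 1 array at Cu 0.1 overlapped them. With CPF alone it read 10.20, 9.55 and 10.07 at 0.1, 10.23, 9.70 and 9.91 at 0.25, and 9.37, 9.99 and 9.29 at 0.6, all overlapping the controls. The mixtures gave 9.44, 9.85 and 9.0 at CPF 0.1, 9.10, 9.82 and 9.40 at CPF 0.25, and 9.49, 9.31 and 9.47 at CPF 0.6. Their values lay between those of copper alone and those of the controls, with overlap on both sides among the 9 arrays.

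gadd45ba, whose mammalian relatives activate stress kinase signalling and take part in DNA demethylation, had closely spaced controls and lower values with copper. gadd45ba read 8.93, 8.98 and 8.87 in controls. With copper alone it read 8.59, 8.41 and 8.30 at 0.1, 8.22, 7.53 and 8.28 at 0.25, and 7.74, 7.98 and 7.62 at 0.6, and all 9 arrays were below the controls. With CPF alone gadd45ba read 9.08, 8.60 and 9.10 at 0.1, 8.87, 8.76 and 9.15 at 0.25, and 8.67, 8.72 and 8.59 at 0.6. CPF 0.6 lay below all controls, a separation not counted over all probe sets, and the lower CPF levels overlapped the controls. In the mixtures it read 8.57, 8.51 and 8.37 at CPF 0.1, 8.20, 8.53 and 8.53 at CPF 0.25, and 8.42, 8.45 and 8.31 at CPF 0.6, all below the controls. The second probe set read 7.71, 7.95 and 7.93 in controls and 6.54, 6.43 and 6.24 at Cu 0.6, again without overlap.

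**Figure D1:**
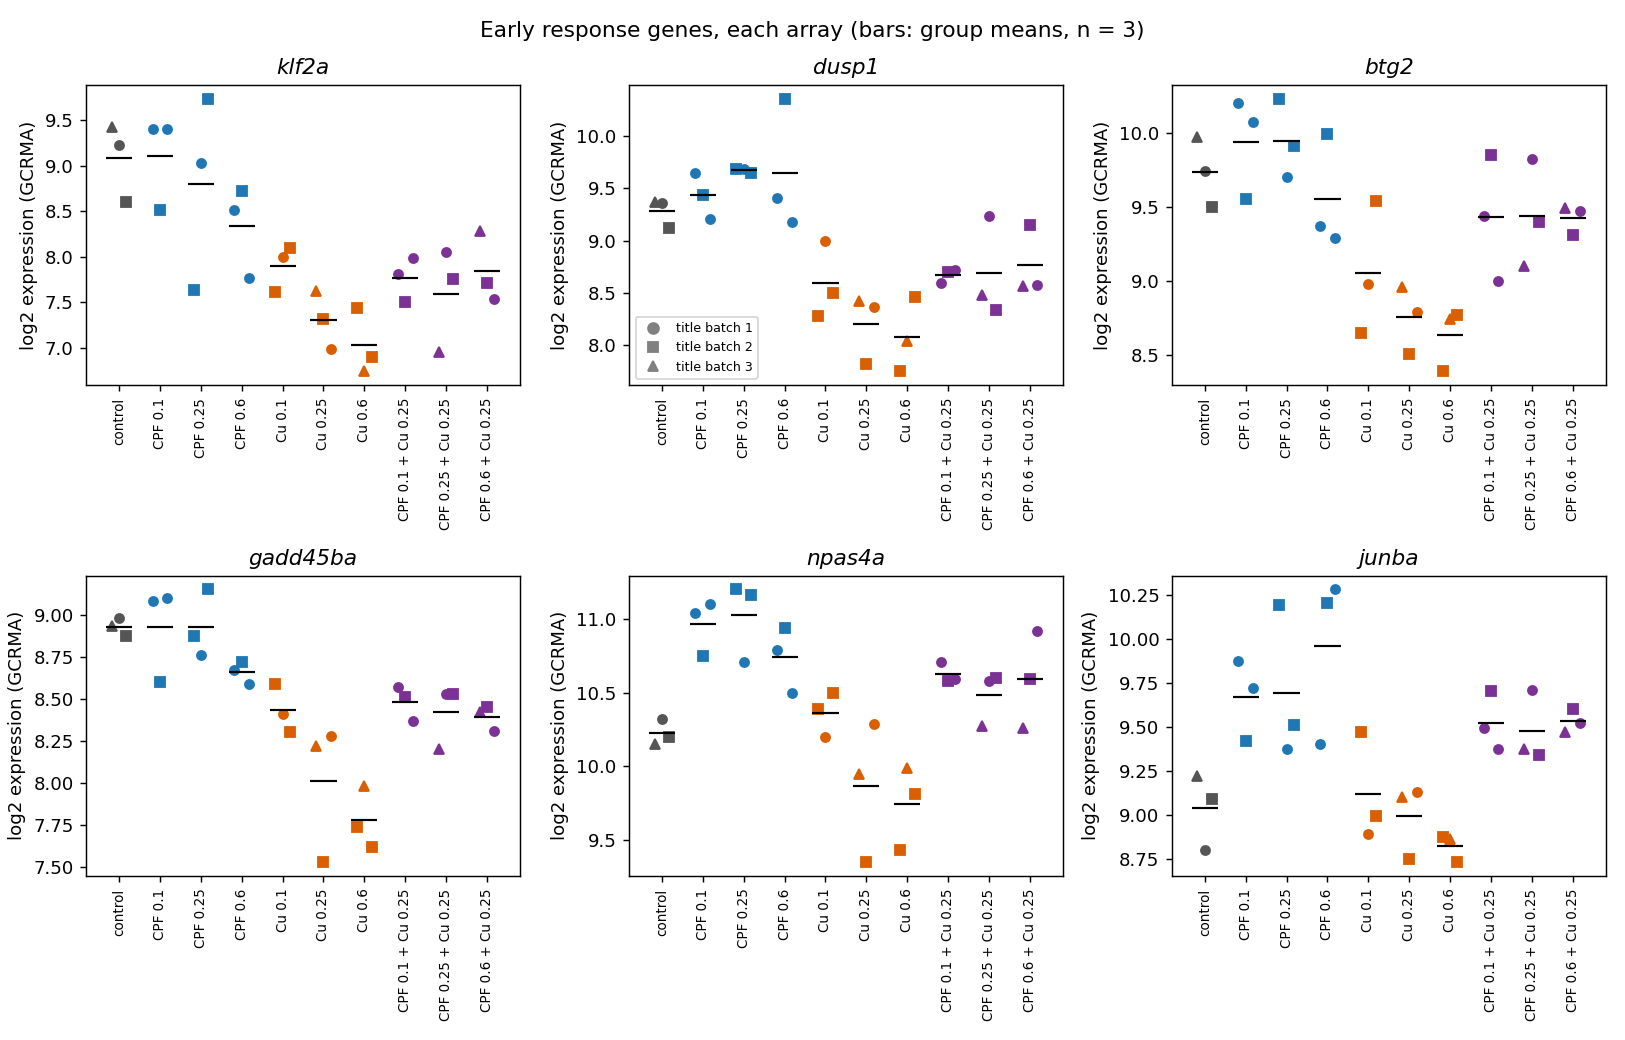
Log2 expression (vertical axis) of each gene in the 10 groups (horizontal axis), 1 point per array, with symbols for the 3 title batches and bars for group means (n = 3). klf2a, dusp1 and gadd45ba have all 9 arrays of copper alone below the 3 controls, and npas4a and junba have all 9 arrays of CPF alone above them. The share of all probe sets with such separations was not counted, and arrays behind the choice of the genes are included.

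In the order of group means, Cu 0.6 was lowest and Cu 0.25 next lowest for each of the 7 kept probe sets. The highest group was CPF 0.1 for klf2a, CPF 0.25 for npas4a and CPF 0.6 for junba. From highest to lowest group the means of klf2a spanned 2.08, those of dusp1 1.59, of btg2 1.31, of npas4a 1.28, of gadd45ba 1.15 and of junba 1.14. Neighbours in this order nearly always overlapped. Of 9 neighbouring pairs, 0 were separate for klf2a, dusp1, btg2, npas4a and junba. For gadd45ba 2 were separate, with CPF 0.6 above the mixture of CPF 0.1 and copper, and the mixture of CPF 0.6 and copper above Cu 0.25.

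Copper at 0.6, whose arrays are assumed not to have been used to choose the genes, was compared with the controls, which are taken as used. klf2a fell by 2.01 ± 0.41 (SE, 3 arrays against 3, adjusted p = 0.0121), which is 4.03-fold lower. dusp1 fell by 1.18 ± 0.28 (adjusted p = 0.0323, 2.27-fold lower) and btg2 by 1.11 ± 0.26 (adjusted p = 0.0286, 2.17-fold lower). gadd45ba fell by 1.12 ± 0.17 (adjusted p = 0.000786, 2.17-fold lower), and its second probe set fell by 1.39 ± 0.26 (adjusted p = 0.00469). npas4a differed by −0.45 ± 0.21 (adjusted p = 0.306), with a 95% interval from −0.88 to −0.02. junba differed by −0.25 ± 0.22 (adjusted p = 0.647), with an interval from −0.71 to 0.22. Thus 4 of the 6 genes passed the limma threshold, all lower, against 1.62% of all probe sets in either direction and 0.94% lower. These 4 were the genes chosen as low with copper, partly on the same controls. The shared controls favour a fall here, so the count and p-values are no independent test of these genes. The median difference of the 6 genes was −1.12, against 0.05 for all kept probe sets.

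Calls for klf2a, dusp1 and btg2 ended in fits with fewer arrays. Without title batch 3 only gadd45ba passed, and in a limma fit of the compared groups alone 0 of the 6 did (gadd45ba, adjusted p = 0.0643). The second gadd45ba probe set passed in that fit. Without Cu 0.6 replicate 2 the adjusted p of klf2a was 0.0992, and without control replicate 1 it was 0.106. dusp1 missed the threshold without any 1 of 5 arrays, Cu 0.6 replicates 1 and 2 and control replicates 1, 2 and 3 (adjusted p of 0.0601 to 0.152). btg2 did so without any 1 of the 3 Cu 0.6 arrays or control replicates 1 and 2 (0.0517 to 0.158). gadd45ba passed in 6 of 6 fits that left out 1 array. The share of all probe sets called in each of these fits is not given here. Calls kept or lost in them are therefore not read as results about these genes. In title batch 2, with 2 Cu 0.6 arrays against 1 control, klf2a differed by −1.44, dusp1 by −1.02, btg2 by −0.92 and gadd45ba by −1.19. In title batch 3, with 1 against 1, the differences were −2.69, −1.33, −1.23 and −0.95.

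**Figure D2:**
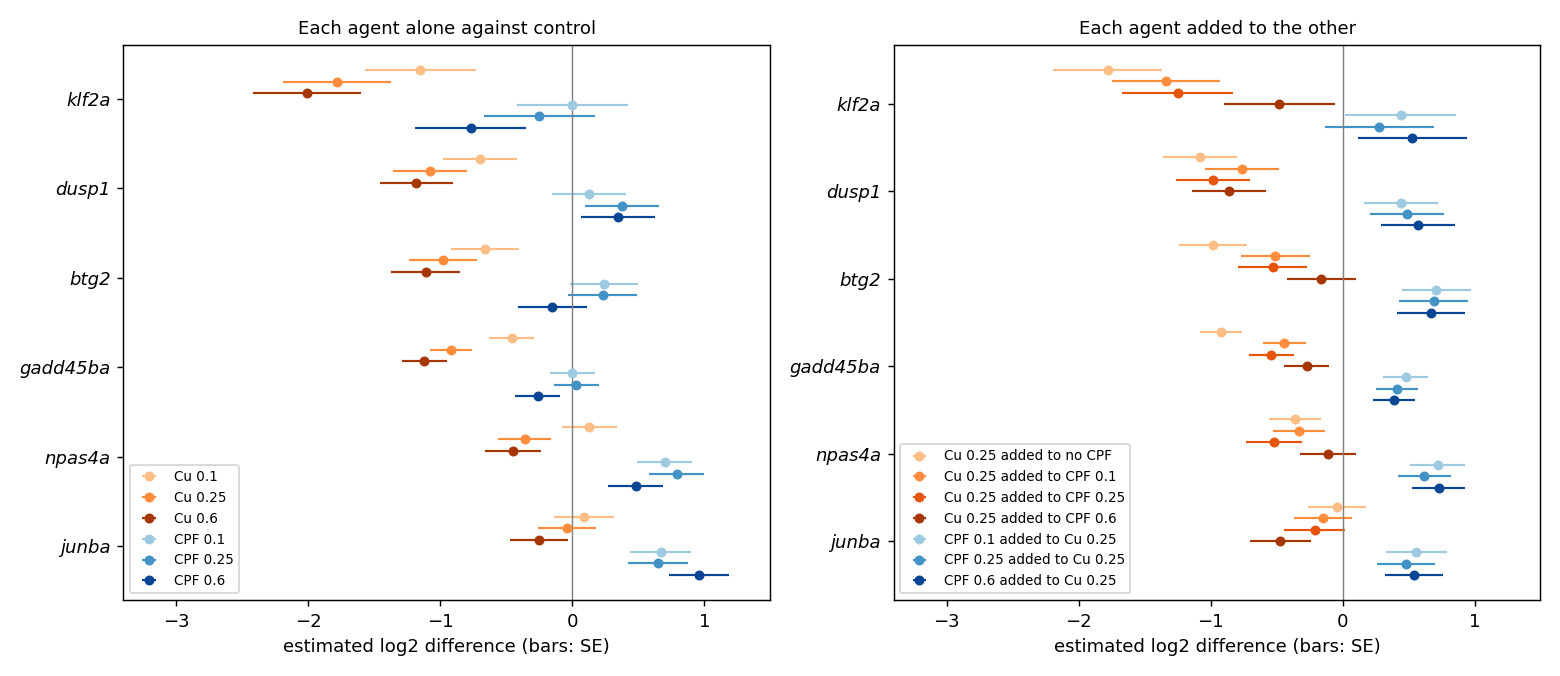
Estimated log2 differences (horizontal axis, limma, bars are SE) of the 6 genes for each agent alone against control (left) and for each agent added to the other (right), with copper in orange and CPF in blue. At Cu 0.6 klf2a stands at −2.01 and junba at −0.25, and CPF added to Cu 0.25 lies above 0 for all 6 genes.

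The arrays of Cu 0.1 are also assumed to lie outside the selection, but the controls they are set against are taken as used. Those shared controls favour low values for the 4 genes chosen on copper, so the counts below are no independent test. At Cu 0.1, 0 of the 6 genes passed the limma threshold, against 0% of all probe sets. At an unadjusted p under 0.05, 4 of 6 did, against 10.8% of all. klf2a differed from control by −1.15 ± 0.42 (adjusted p = 0.376), dusp1 by −0.70 ± 0.28 (0.405), btg2 by −0.66 ± 0.26 (0.399) and gadd45ba by −0.46 ± 0.17 (0.376). npas4a and junba lay near the controls, at 0.13 ± 0.21 (adjusted p = 0.834) and 0.09 ± 0.23 (0.906). The 3 arrays lay wholly below the 3 controls for klf2a, dusp1 and gadd45ba, a separation seen in 7.92% of all probe sets. At Cu 0.6 the same separation held for klf2a, dusp1, btg2, gadd45ba and npas4a, against 6.44% of all.

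Cu 0.6 set against Cu 0.1 compares groups outside the averaged copper difference taken to have chosen the genes. The batch terms and spread of the fit, however, draw on all arrays, those behind the choice included. The estimates, counts and p-values of the fit are therefore a description and no independent test. All 6 estimates were negative, with a median of −0.53, and 0 passed the limma threshold, against 0.152% of all probe sets. Of the 6, 2 had an unadjusted p under 0.05, against 11.4% of all. The estimates were −0.86 ± 0.42 for klf2a (adjusted p = 0.442), −0.66 ± 0.17 for gadd45ba (0.107) and −0.58 ± 0.21 for npas4a (0.28). They were −0.49 ± 0.28 for dusp1 (0.549), −0.46 ± 0.26 for btg2 (0.542) and −0.33 ± 0.23 for junba (0.631). Within title batch 2, the difference of 2 arrays against 2 used no array of the averaged copper difference. There klf2a differed by −0.69, gadd45ba by −0.76 and npas4a by −0.83. dusp1 differed by −0.28, btg2 by −0.51 and junba by −0.43, all given with no test.

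The differences that chose the genes are given for description. Copper at 0.25 averaged over the 4 CPF levels, 12 arrays against 12, stood at −1.21 ± 0.21 for klf2a, −0.92 ± 0.14 for dusp1, −0.55 ± 0.13 for btg2 and −0.54 ± 0.08 for gadd45ba. It stood at −0.33 ± 0.10 for npas4a and −0.22 ± 0.11 for junba. With batch terms removed, all 12 copper arrays lay below the median of the others for klf2a, dusp1 and gadd45ba, as did 10 for btg2, 11 for npas4a and 7 for junba. Copper 0.25 alone stood apart from control by −1.78 for klf2a, −1.08 for dusp1, −0.98 for btg2, −0.92 for gadd45ba, −0.36 for npas4a and −0.04 for junba. klf2a, dusp1, btg2 and gadd45ba had all 3 of these arrays below the controls, beside 4.96% of all probe sets. The averaged comparison called 4.35% of all probe sets.

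CPF alone is described in the same way. npas4a stood above control by 0.70, 0.79 and 0.48 at CPF 0.1, 0.25 and 0.6, and junba by 0.67, 0.65 and 0.96. klf2a stood at 0.00, −0.25 and −0.77, dusp1 at 0.13, 0.38 and 0.35, btg2 at 0.24, 0.23 and −0.15, and gadd45ba at 0.00, 0.03 and −0.26. Single arrays turned some of these signs. Without CPF 0.25 replicate 1 klf2a stood at 0.31 at CPF 0.25, and without CPF 0.6 replicate 2 dusp1 stood at −0.10 at CPF 0.6. CPF 0.25 replicates 1 and 3 and CPF 0.6 replicate 2 were among the 4 arrays with most liver and pancreas transcripts. Without those 4, btg2 stood at −0.06 and gadd45ba at −0.20 at CPF 0.25. In title batch 1, with CPF 0.25 replicate 2 against 1 control, npas4a stood at 0.39 and junba at 0.57. In the limma fit 0 of the 6 genes were called at CPF 0.1, 0.25 and 0.6, beside 0%, 0% and 0.0095% of all probe sets, and nothing is read from these counts because the CPF direction of npas4a and junba was known. All 3 arrays exceeded the controls for npas4a and junba at CPF 0.1 (8% of all probe sets), for dusp1, npas4a and junba at CPF 0.25 (6.81%), and for npas4a and junba at CPF 0.6 (7.84%).

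Averaged over its 3 levels with and without copper, 18 arrays against 6, CPF stood at 0.67 ± 0.12 for npas4a and 0.64 ± 0.13 for junba. With batch terms removed, 18 of 18 CPF arrays lay above the median of the others for both genes. The other estimates were 0.40 ± 0.15 for btg2, 0.39 ± 0.17 for dusp1, 0.18 ± 0.10 for gadd45ba and 0.04 ± 0.24 for klf2a. The fit counts npas4a and junba among its calls, beside 0.266% of all probe sets, which tests neither gene since both were chosen with this direction known. Within title batches 1 and 2 the difference was 0.47 and 1.06 for npas4a and 0.67 and 0.79 for junba. In title batch 3 both CPF arrays also held copper and were set against 1 control and 1 Cu 0.25 array, so that its differences, 0.21 for npas4a and 0.26 for junba, hold part of the copper difference.

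The copper and CPF directions are set side by side in their difference at equal numbers, which are not shown to be equal doses. Copper lay below CPF for all 6 genes at 0.1, 0.25 and 0.6. The genes were chosen with their copper or CPF direction known, so this is a description and no test. The difference was −1.15, −1.52 and −1.24 for klf2a, −0.83, −1.46 and −1.53 for dusp1, and −0.90, −1.21 and −0.96 for btg2. It was −0.46, −0.95 and −0.85 for gadd45ba, −0.57, −1.14 and −0.93 for npas4a and −0.58, −0.70 and −1.21 for junba. The parts of this gap differed between genes, which follows how klf2a and junba were chosen and is no separate result. For klf2a at 0.25, Cu stood at −1.78 and CPF at −0.25 against the shared controls. For junba at 0.25, Cu stood at −0.04 and CPF at 0.65.

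CPF added to Cu 0.25 gave positive estimates for all 6 genes at each CPF level. At CPF 0.1, 0.25 and 0.6 the estimates were 0.72, 0.62 and 0.73 for npas4a and 0.56, 0.48 and 0.54 for junba. These are part of the averaged CPF difference known when both genes were chosen, and are given with no test. Among the 4 genes chosen on copper the estimates were 0.71, 0.69 and 0.67 for btg2 (adjusted p = 0.838, 0.847 and 0.839) and 0.48, 0.41 and 0.39 for gadd45ba (0.807, 0.871 and 0.857). They were 0.44, 0.49 and 0.57 for dusp1 and 0.44, 0.28 and 0.53 for klf2a. By limma 0 of these 4 passed at each level, against 0%, 0% and 0.0095% of all probe sets. At each level 2 of the 4, btg2 and gadd45ba, had an unadjusted p under 0.05, against 5.24%, 5.66% and 5.79%. The Cu 0.25 and mixture arrays are among those on which these 4 genes were chosen. These p-values and counts are therefore a description and no independent test. Many of the estimates were smaller without Cu 0.25 replicate 2, as for gadd45ba, at 0.24, 0.18 and 0.16, and npas4a, at 0.42, 0.34 and 0.44. In title batch 3, with 1 array against 1, CPF 0.25 added to copper stood at −0.67 for klf2a and −0.02 for gadd45ba. All 3 mixture arrays exceeded all 3 of Cu 0.25 for every gene except klf2a at CPF 0.1 (6.17% of all probe sets). They did so for btg2 and junba at CPF 0.25 (4.25%), and for dusp1, btg2, gadd45ba and junba at CPF 0.6 (3.96%). The 3 levels share the same Cu 0.25 arrays.

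Averaged over the 3 mixtures, a comparison chosen after seeing the data, CPF with copper stood at 0.69 ± 0.17 over copper alone for npas4a and 0.53 ± 0.18 for junba, again with no test. The estimate was 0.69 ± 0.21 for btg2 (adjusted p = 0.398), 0.50 ± 0.23 for dusp1 (0.672), 0.43 ± 0.13 for gadd45ba (0.431) and 0.42 ± 0.33 for klf2a (0.836). By limma 0 of these 4 passed, against 0.019% of all probe sets. At an unadjusted p under 0.05 were dusp1, btg2 and gadd45ba, 3 of the 4, against 7.14%. Because the comparison was chosen after seeing the data, these p-values and counts are a description and no test. Without Cu 0.25 replicate 2 gadd45ba stood at 0.19, dusp1 at 0.28 and npas4a at 0.40. The differences varied by batch: in title batches 1, 2 and 3 npas4a stood at 0.41, 1.24 and 0.31 and gadd45ba at 0.17, 0.97 and 0.09. An F-test for a CPF by copper interaction passed for 0 of 6 genes, against 0% of all probe sets. At an unadjusted p under 0.05 it passed for 0 of 6, against 3.67% of all.

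Copper added to CPF, which overlaps the averaged copper difference, is given as values only. At CPF 0.1, 0.25 and 0.6 the mixture stood below CPF alone by an estimate of −1.34, −1.25 and −0.48 for klf2a and −0.76, −0.98 and −0.86 for dusp1. The estimates were −0.51, −0.53 and −0.16 for btg2, −0.44, −0.54 and −0.27 for gadd45ba, −0.33, −0.52 and −0.11 for npas4a and −0.15, −0.21 and −0.47 for junba. Against unexposed controls the mixtures were low for klf2a (−1.34, −1.50 and −1.24) and dusp1 (−0.64, −0.59 and −0.51). They stood at −0.44, −0.51 and −0.53 for gadd45ba and −0.27, −0.30 and −0.31 for btg2. npas4a stood at 0.36, 0.26 and 0.37 and junba at 0.52, 0.44 and 0.49, the only positive values among the 6 genes in these mixtures.

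Most pairs of the 6 genes had positive correlations among arrays of the same treatment. With batch terms and group means removed, the 15 pairs of genes had Pearson correlations from −0.30 to 0.68, with a median of 0.33 and 13 above 0. Pairs of all kept probe sets had a median of 0.01 and an upper quartile of 0.23. gadd45ba and npas4a were the closest pair, at 0.68. Cu 0.25 replicate 2 was the lowest array of its group for every gene except klf2a. Correlations without it were not computed, so how far the positive values rest on that array was not tested. klf2a and junba were the most opposed, at −0.30, and klf2a stood at −0.05 with npas4a. The 2 probe sets of gadd45ba correlated at 0.88. These are descriptions over 30 arrays that share a platform and normalization.

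**Figure D3:**
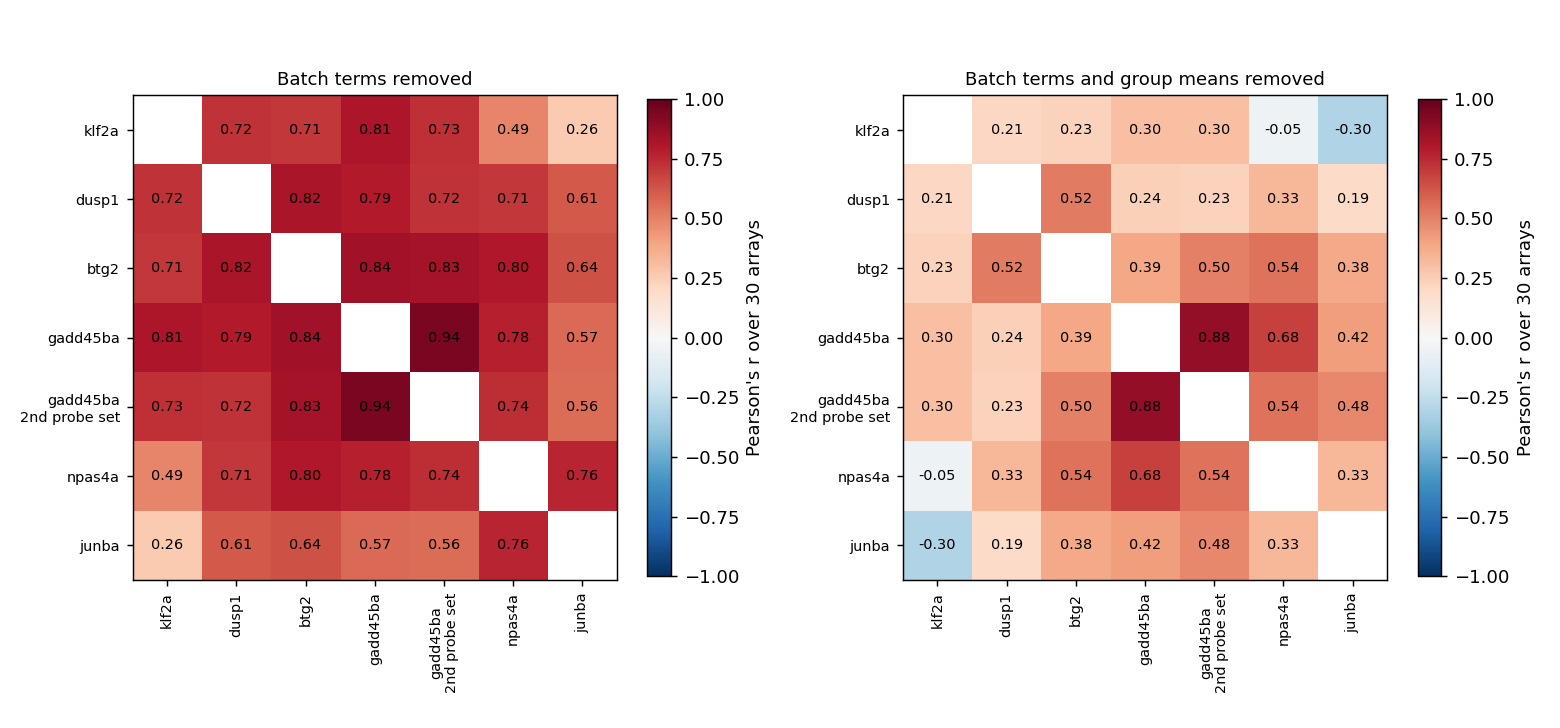
Pearson correlations over 30 arrays between the 7 kept probe sets, with batch terms removed (left) and with group means removed as well (right). Correlations between different genes run from 0.26 to 0.84 on the left and from −0.30 to 0.68 on the right.

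Among 6442 other genes, those most like the mean of the 6 over 30 batch-adjusted arrays were pim1, a serine/threonine kinase (r = 0.933), cebpd, a leucine zipper transcription factor (0.906), and socs3a, a feedback inhibitor of cytokine signalling (0.903). Next came nfkbiab, an NF-kappa-B inhibitor (0.892), ier2a (0.886), the nuclear receptor nr4a1 (0.883), fosab, a Fos subunit of AP-1 (0.876), and egr4, a zinc finger transcription factor (0.862). These correlations keep the group means, so they hold the treatment differences on which the 6 genes were chosen. Among pairs of the 6 genes the median was 0.72 with group means kept and 0.33 with them removed. The ranking is therefore a description, and the r typical of all genes is not given here. The nearest genes differed between members. For npas4a they were egr4 (0.948) and fosab (0.911), for junba plk3 (0.853) and dusp5 (0.841), and for dusp1 cebpd (0.915) and aff3 (0.882). For klf2a they were nfkbiab (0.838) and mllt3 (0.832), for btg2 nfkbiab (0.90) and cebpd (0.869), and for gadd45ba pkib (0.872) and nfkbiab (0.866).

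A wider list of other early response genes had 57 kept members of 61 on the array. It was drawn up with earlier results of these data known, and the controls are shared with the choice of the 6 genes. Its counts and p-values for copper are therefore a description. At Cu 0.6 4 of the 57 fell and 0 rose, against 0.94% of all probe sets lower and 1.62% called in either direction. socs3a fell by 2.40 ± 0.34 (adjusted p = 0.000463), cebpd by 1.22 ± 0.22 (0.00439), mcl1b, an anti-apoptotic BCL2 relative, by 0.84 ± 0.19 (0.0237), and gadd45ab by 0.78 ± 0.15 (0.00618). Their list had 43 of 57 estimates below 0 and a median of −0.23, against 0.05 for all probe sets. At Cu 0.1 0 of 57 passed by limma, 6 had an unadjusted p under 0.05, a share near the 10.8% of all probe sets, and the median was −0.08. With averaged copper 0.25, which helped to choose the 6 genes, 11 of 57 were called lower, beside 4.35% of all probe sets called, and the median was −0.20, against 0.02 for all. The 4 largest estimates of the list were −0.90 ± 0.17 for socs3a, −0.71 ± 0.14 for klf9, −0.65 ± 0.21 for cebpb and −0.64 ± 0.21 for rgs2, given as a description with no test. Of these, socs3a and klf9 were among the 11 and cebpb and rgs2 were not.

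With CPF averaged over its levels, 2 of the 57 passed, both higher, against 0.266% of all probe sets. The direction of early response genes with CPF was known when the list was drawn up, so the counts and p-values here are a description. The 2 genes were ccn2a, a matricellular growth factor (0.81 ± 0.15, adjusted p = 0.0193), and pim1 (0.42 ± 0.08, 0.0282). The larger estimates that missed the threshold were 0.94 ± 0.31 for atf3, a stress-induced transcription factor (0.254), 0.87 ± 0.22 for egr2b (0.0987) and 0.71 ± 0.16 for egr2a (0.0645). Of the 57, 48 estimates were above 0, with a median of 0.22 against 0 for all probe sets. With the 3 mixtures averaged against Cu 0.25, 0 of 57 passed by limma, 15 had an unadjusted p under 0.05 (7.14% of all probe sets), 42 were above 0 and the median was 0.22. This comparison is part of the averaged CPF difference, so it is no separate test of the list.

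**Figure D4:**
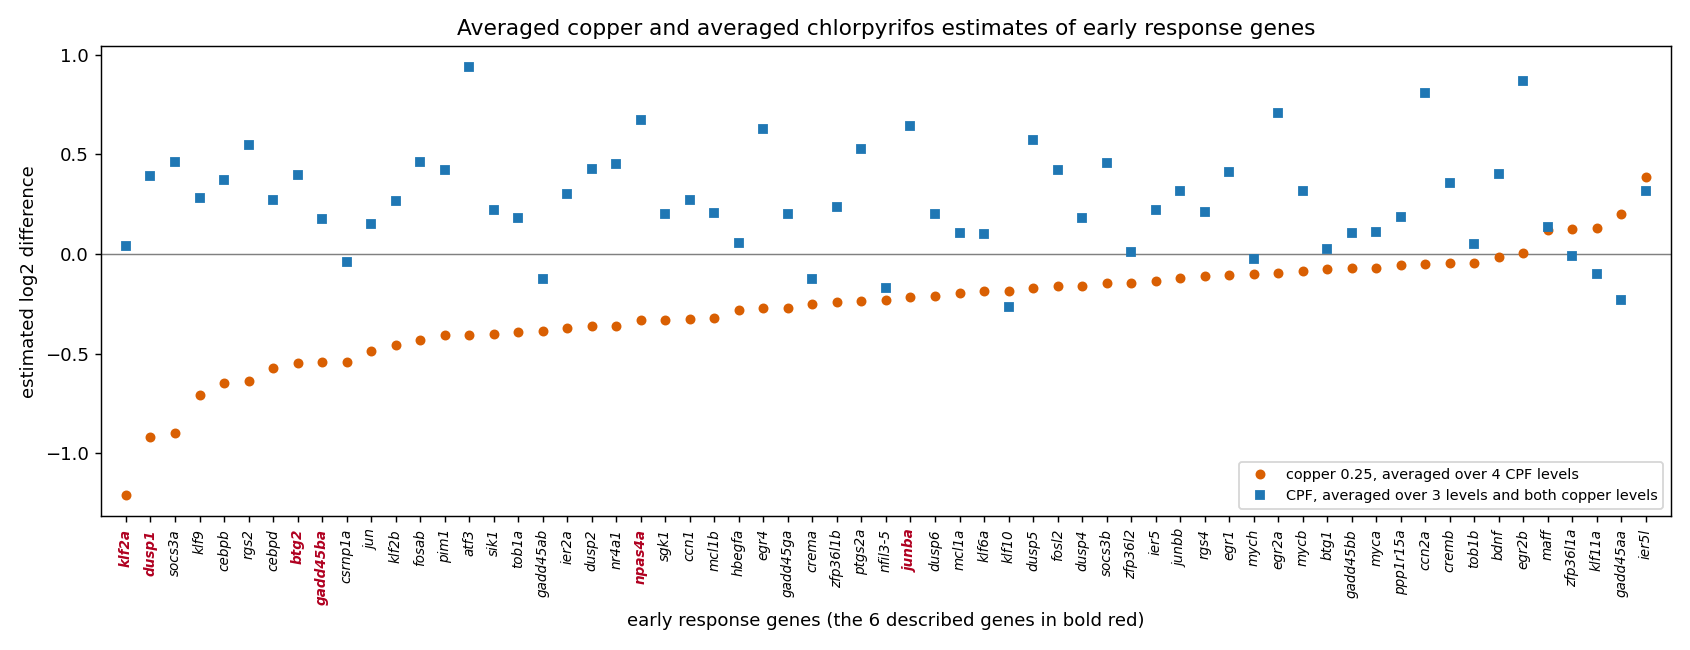
Estimated log2 difference (vertical axis) of the 6 genes, in bold red, and 57 other early response genes (horizontal axis, sorted by the copper estimate), with circles for Cu 0.25 averaged over 4 CPF levels and squares for averaged CPF. Of the 57, 51 lie below 0 with averaged copper and 48 above 0 with averaged CPF.

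Kinases and transcription factors known to act upstream of immediate early genes had 13 kept members, map2k1, mapk3 and mef2aa among them. By limma 0 of 13 passed at Cu 0.6 and 0 with averaged CPF, with medians of 0.08 and 0.01. At an unadjusted p under 0.05 these were 1 and 0, against 15% and 11.5% of all probe sets in the same comparisons. Of 10 kept MAP kinase feedback genes, such as dusp2, dusp6 and spred1, 0 passed in these comparisons, with medians of −0.15 and 0.17 and with 1 and 5 at an unadjusted p under 0.05. Of 9 kept genes of p53 signalling and growth arrest, such as btg1, btg3 and ccng1, 0 passed, with medians of −0.01 and 0.03 and with 0 at an unadjusted p under 0.05 in both. Among 10 kept glucocorticoid-responsive genes cebpd fell at Cu 0.6, beside 1.62% of all probe sets called. The list's median was −0.10, against 0.05 for all probe sets. With averaged copper 0.25, which helped to choose the 6 genes, its median was −0.40, against 0.02 for all. In that comparison fkbp5, a co-chaperone of the glucocorticoid receptor, stood at −0.52, given with no test. Some genes, such as cebpd, belong to more than 1 list.

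Marker levels of other cell types were measured in the same groups. Of the listed markers of olfactory sensory neurons, 4 had no named probe set here, and the 3 kept were ompb, gng13b and s100z. A marker level here is the log2 of the summed linear values of the kept markers, in which the brightest weigh most. For these 3 it was 12.18 to 12.60 in controls, 11.24 to 11.44 at Cu 0.1, 10.67 to 11.26 at Cu 0.25 and 10.22 to 10.34 at Cu 0.6. The mixtures spanned 10.72 to 11.73 and CPF alone 11.37 to 12.66. General neuronal markers, 8 kept of 9 listed, spanned 14.87 to 15.09 in controls and 14.99 to 15.13 at Cu 0.6. The 8 kept liver and pancreas markers spanned 8.46 to 9.40 in controls and 7.46 to 8.19 at Cu 0.6, with the highest array, CPF 0.6 replicate 2, at 11.96. CPF 0.25 replicates 1 and 3 came next, at 10.65 and 9.82. The 2 kept endothelial markers, kdrl and plvapb, spanned 7.20 to 7.45 in controls, 7.56 to 7.72 at Cu 0.6 and 8.03 to 8.32 at CPF 0.6. What part these cell types have in the values of the 6 genes was not tested.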

How the data were processed

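RNA of 30 samples was hybridised to Affymetrix zebrafish arrays, per the labels' protocols. The deposited table holds log2 expression values, made by the authors with GCRMA per the submitters' processing notes, and that the scale is log2 was read from the range of the values, 1.09 to 15.73 over the kept probe sets. Its 15617 probe sets include 115 controls, which were left out. The platform annotation gave 1 gene symbol to 10795 probe sets, several to 135 and none to 4572. No further normalization was applied.

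Probe sets above 4 in at least 3 arrays were kept (10531). Group means and title batch were fixed effects in one linear model of the 30 arrays, fitted with limma (version 3.58.1, R 4.3.3) and moderated with eBayes, leaving 18 residual degrees of freedom. The titles carry dates, and nothing in the labels says what was done on them. Cu 0.6 had no array in title batch 1. The number of arrays limits the precision. Replicates were numbered in accession order.

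The genes, the gene lists and the comparisons were chosen with earlier results of these data known. Named genes are the 6 genes, the list members past the threshold or otherwise the 4 largest estimates for each averaged agent, up to 3 members of each other list, and the 8 and 2 genes with the highest correlations. The text gives part of these. Alternatives were no batch term or a random one, other filters, normalizations, priors and weights, fewer groups or arrays, comparison inside each title batch, the mean of a gene's probe sets, and leaving out each array. The fits were tested on simulated data with known changes.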

Additional observations from a re-analysis of the deposited data

Results flagged for a closer look

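At CPF 0.6, 3 probe sets of 2 genes lay on opposite sides of their reference with and without copper. Without copper, all 3 klf2a arrays lay below the control mean, at −1.31 to −0.37, and with copper all 3 lay 0.23 to 0.97 above the mean of Cu 0.25. The difference between these effects of CPF was 1.30 ± 0.58 (SE, limma, unadjusted p = 0.037, adjusted p = 0.774). gadd45ba lay at −0.34 to −0.21 without copper and at 0.30 to 0.44 with it, a difference of 0.65 ± 0.24 (unadjusted p = 0.0113, adjusted p = 0.695). Its second probe set lay at −0.48 to −0.35 and 0.78 to 1.05, a difference of 1.41 ± 0.37 (unadjusted p = 0.000862, adjusted p = 0.582). None of these 3 differences passed the threshold over all probe sets. The cases were flagged because their arrays lay on opposite sides, so the unadjusted p-values come from the arrays that flagged them and are no test. How many of all probe sets meet the same rule was not counted. The 2 probe sets of gadd45ba measure 1 gene, and all 3 cases share the same Cu 0.25 arrays.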

How the results depend on the processing

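Of 297 alternative values of summary results, 276 stayed within 1.5 times or the spread of the reported value, and 21 moved. Most of the 297 were counts of calls with a reported value of 0, which had no call to lose. Most of the 21 moves were in the counts at Cu 0.6 and for averaged CPF. Of 2882 alternatives for single genes, 19 lost a call, 10 gained one, and 46 changed sign, 40 of them in comparisons with CPF and 24 within 1 title batch. Most of the 2882 had no call to lose. Lost and gained calls of single genes were counted only for Cu 0.1, Cu 0.6 and CPF added to Cu 0.25, not for averaged CPF. All 19 losses counted were at Cu 0.6. There dusp1 and btg2 each passed in 9 of 11 other settings and in 1 of 6 fits leaving out 1 array. klf2a passed in 9 of 11 and 4 of 6, and gadd45ba in 11 of 12 and 6 of 6. At Cu 0.6 the count of 4 genes called became 1 without title batch 3, 0 with the compared groups alone, and 1 to 3 leaving out each array. Array weights called 3 genes at Cu 0.1, 3 for Cu 0.6 against Cu 0.1, 2 at CPF 0.1 and 1 at CPF 0.6. The share of all probe sets called in each alternative fit is not given here. Changed counts in this paragraph are therefore not read as results about these genes. Leaving out each array gave 0 to 1 call at CPF 0.6. For averaged CPF the count of 2 became 1 without title batch 3, 1 with the compared groups alone, 0 without the 4 arrays with most liver and pancreas transcripts, and 0 to 2 leaving out each array (0 without Cu 0.25 replicate 2, control replicate 2 or control replicate 3). junba at Cu 0.1 ranged from −0.08 to 0.18 leaving out each array, and was below 0 without Cu 0.1 replicate 1 (−0.08) or control replicate 2 (−0.02). A fit without title batch 3 or of the compared groups alone has fewer arrays. Other causes were not tested. No paired analysis was possible because replicates carry no shared number in the labels. Probe sets near the dim end were left out, and signal over background was not used.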
